A study of Mus musculus with 5 samples.

Results

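The genes described are the 5 ligands (Vegfa, Vegfb, Vegfc, Vegfd and Pgf), the 3 receptor tyrosine kinases (Kdr, Flt1 and Flt4) and the 2 co-receptors (Nrp1 and Nrp2) of the vascular endothelial growth factor (VEGF) system. They were taken by gene symbol, which gave 10 of the 32285 genes in the tables, and each symbol matched 1 gene. Their transcripts were counted in single cells of dissociated whole mouse lungs at embryonic day E18.5. The groups were 2 embryos heterozygous for Zswim8 (Zswim8+/-, Het1 and Het2) and 3 embryos lacking it (Zswim8-/-, KO1, KO2 and KO3), with 1 droplet library per embryo. The comparison asks how loss of Zswim8 bears on transcript levels in the lung. Zswim8+/+ lungs were not analysed here, so every difference is between no intact copy and a single intact copy. Zswim8 encodes the substrate receptor of a ubiquitin ligase that degrades Argonaute proteins bound to certain microRNAs, and the microRNAs with them.

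VEGF-A, the ligand most needed for blood vessels, binds both FLT1 and KDR. KDR carries most of its proliferation and survival signal in endothelial cells, while FLT1 binds it tightly, signals weakly and acts largely as a decoy. VEGF-B and placental growth factor (PGF) bind FLT1, and VEGF-C and VEGF-D act through FLT4, the receptor of lymphatic endothelium. Neuropilins hold VEGFs and class 3 semaphorins at the cell surface. In the distal lung, alveolar type 1 (AT1) cells are a main source of VEGF-A for the capillaries around them. Those capillaries hold general capillary cells and aerocytes, the latter being large cells that face the gas-exchange surface and depend on epithelial VEGF-A.

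The sequences shown first are those of microRNAs tied to Zswim8 and of the matches to their seeds in the VEGF genes, because Zswim8 acts through microRNAs. MiR-7a, miR-322 and miR-503 are microRNAs known to be degraded with Zswim8, and miR-16 shares the seed of miR-322. The mature sequences are from RefSeq on GRCm38.p6, with the seed, bases 2 to 8, in capitals. MiR-322 and miR-16 share 1 seed, AGCAGCA, and miR-503 differs from it in the last base of the seed.
mmu-miR-322-5p: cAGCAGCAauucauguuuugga
mmu-miR-503-5p: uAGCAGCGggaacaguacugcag
mmu-miR-16-5p: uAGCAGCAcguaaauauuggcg
mmu-miR-7a-5p: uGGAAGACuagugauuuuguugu

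Matches to these seeds were searched in 1 annotated 3′ UTR of each member, on the transcript strand. TGCTGCT, the match to miR-322 and miR-16, was found once each in Vegfa (chr17:46018586-46018607, minus strand), Kdr (chr5:75934356-75934377, minus strand) and Flt1 (chr5:147636530-147636551, minus strand). GTCTTCC, the match to miR-7a, was found once, in Flt1 (chr5:147637501-147637522, minus strand). No letters matching the miR-503 seed, CGCTGCT, were found in any of the 10. Among 21020 annotated 3′ UTRs, 20.3% held TGCTGCT, 3.93% CGCTGCT and 11.9% GTCTTCC. A match describes letters, not a working site, and microRNAs were not measured here. The Flt1 3′ UTR read is that of a transcript that ends inside the gene. Each match is printed with its flanks, the matched letters in capitals.
Vegfa, TGCTGCT: ttcttatatcTGCTGCTaaatc
Kdr, TGCTGCT: acgagagaggTGCTGCTtagat
Flt1, TGCTGCT: tggctttataTGCTGCTtgtgt
Flt1, GTCTTCC: ctgaggcaatGTCTTCCtccag

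Flt1 and Nrp2 are shown with their promoters because both were lower in several immune clusters of the KO lungs, as described further on. The windows are from RefSeq on GRCm38.p6 and run from 250 bases before to 50 after the annotated start, for Flt1 at chr5:147725962-147726261 on the minus strand and for Nrp2 at chr1:62703067-62703366 on the plus strand. Capitals mark the searched motifs on either strand, which were the hypoxia-response cores ACGTG and GCGTG, the ETS core CCGGAA, its other form AGGAAG, the TATA box letters TATAAA and the cyclic-AMP element TGACGTCA.
Flt1: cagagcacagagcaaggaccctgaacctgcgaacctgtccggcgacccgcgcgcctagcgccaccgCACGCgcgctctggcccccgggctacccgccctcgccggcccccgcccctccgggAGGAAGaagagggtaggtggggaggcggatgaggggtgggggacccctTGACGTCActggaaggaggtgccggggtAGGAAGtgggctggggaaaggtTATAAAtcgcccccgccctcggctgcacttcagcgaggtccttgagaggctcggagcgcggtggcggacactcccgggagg
Nrp2: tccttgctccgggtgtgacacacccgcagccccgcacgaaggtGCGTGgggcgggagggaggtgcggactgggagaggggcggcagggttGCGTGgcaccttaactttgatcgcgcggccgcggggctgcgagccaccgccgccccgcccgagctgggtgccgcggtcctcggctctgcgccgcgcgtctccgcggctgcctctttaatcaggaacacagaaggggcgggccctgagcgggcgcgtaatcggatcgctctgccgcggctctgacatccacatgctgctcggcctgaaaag

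The Flt1 window held 1 GCGTG (as CACGC), 2 AGGAAG, 1 TGACGTCA and 1 TATAAA, and the Nrp2 window held 2 GCGTG and none of the others. Of 32851 promoter windows of this length, 32.4% held GCGTG, 19.6% ACGTG, 35.4% AGGAAG, 14.9% CCGGAA, 13.6% TATAAA and 1.79% TGACGTCA. The shared GCGTG is therefore a common pentamer. The windows describe letters alone and say nothing of binding.

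The libraries held 56608582 to 93708304 unique molecular identifiers (UMIs, each standing for 1 captured transcript) over all barcodes, and 18869 cells were kept, from 3051 in KO1 to 4634 in Het1. Between 0 and 7 barcodes were shared by any pair of libraries. Cells fell into 51 clusters, which were named after marker genes as "AT1-like" and so on. Of these, 15 clusters had no class name. No lineage was given to 10 clusters, which included the named megakaryocyte-, erythroid- and mesothelial-like clusters. Zswim8 stood at 36.2 and 38.1 CPM (counts divided by the library's total UMIs, at the usual scale) in the Het and at 38.1, 39.2 and 41.2 in the KO libraries. The labels do not say which part of the gene is deleted, so these 3′ counts do not check the genotype. Both Het embryos and KO3 were male by Y-linked UMIs and KO1 and KO2 were female, so sex and genotype overlap in part. Free RNA was present, since barcodes made up mainly of haemoglobin UMIs carried Vegfa at 103.7 ± 16.8 CPM (SD, n = 5). Kdr stood there at 36.2 ± 13.3 and Flt1 at 16.9 ± 3.84. For these barcodes alone, haemoglobin UMIs were left out of the total by which counts were divided. Their values are therefore higher than on the full total and are not on the scale of the class levels.

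Levels by cell class are CPM of the class in a library with no further scaling, as mean ± SD over libraries with at least 20 cells of it. Only the 3 KO libraries held enough lymphatic-like cells and only the 2 Het libraries enough aerocyte-like cells, so these levels come from 1 genotype. They are a description, and values of different genes are not set against each other, because counting from the 3′ end catches genes unequally. Vegfa, Vegfc and Vegfd were highest in epithelium, blood endothelium and fibroblasts. Vegfa was highest in AT1-like cells, at 945 ± 146 (n = 5), followed by cells with markers of both AT1 and type 2 (AT2) cells at 453 ± 57.1. Those 2 classes stood apart beyond their spread, while the next, club-like cells at 143 ± 18.48 and AT2-like cells at 141 ± 32.2, did not. With finer clusters (Leiden resolution 3) AT2-like cells had 231.1 ± 23.1 and club-like cells 128 ± 24.4, so the order of these 2 moves with the clustering. Vegfc was highest in venous-like endothelium, at 277 ± 99.4 (n = 4), before arterial-like cells at 111 ± 36.8 and general capillary-like cells at 46.2 ± 5.55. Vegfd was highest in adventitial fibroblast-like cells, at 299 ± 50, then in alveolar fibroblast-like cells at 209 ± 31.3 and in cells with pericyte and smooth muscle markers at 159 ± 34.8, the last 2 overlapping in range.

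Vegfb was low and broad, with 74.0 ± 5.58 (n = 3) in lymphatic-like cells, 51.8 ± 2.51 in macrophage-like cells and 41.3 to 45.5 in alveolar fibroblast-, smooth muscle-, myofibroblast-, mesothelial- and pericyte-like cells. It was lowest in neutrophil-like cells, at 1.40 ± 1.16. Pgf was low everywhere. It reached 41.9 ± 38.4 (n = 3) in lymphatic-like, 35.1 ± 9.63 in smooth muscle-like and 34.1 ± 7.21 in mesothelial-like cells, which did not differ beyond their spread.

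Among the receptors, Kdr was highest in aerocyte-like cells, at 1598 ± 10.3 in the 2 Het libraries that held enough of them. General capillary-like cells followed at 637 ± 70.6 and lymphatic-like cells at 582 ± 66.7 (n = 3), which overlapped, and then venous-like cells at 456 ± 63.7 (n = 4). Outside endothelium, Kdr stood at 207 ± 74.3 in megakaryocyte-like and 132 in club-like cells. The pericyte-like class had 313 ± 145 for Kdr, 233.5 for Flt1 and 27.3 for Flt4, but 6.02, 5.13 and 1.56 at Leiden resolution 3, where 3 libraries held at least 20 such cells. Flt1 was alike in venous-like (522 ± 82.2), arterial-like (519 ± 72.0) and aerocyte-like cells (467 ± 21.1), and lower in general capillary-like cells (358 ± 38.4). It was near 0 in lymphatic-like cells. Flt4 had 515 ± 30.2 (n = 3) in lymphatic-like cells, and its next levels were 96.5 ± 9.003 in aerocyte-like (n = 2) and 59.9 ± 4.05 in general capillary-like cells.

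The co-receptors divided the endothelium. Nrp1 was highest in aerocyte-like (887 ± 28.6, n = 2) and arterial-like cells (666 ± 57.1) and was 5.17 ± 4.90 (n = 3) in lymphatic-like cells. Nrp2 was highest in lymphatic-like (773 ± 174, n = 3) and venous-like cells (372 ± 13.4, n = 4). Nrp1 was also carried by the class with both pericyte and smooth muscle markers (417 ± 60.4) and by adventitial fibroblast-like cells (268 ± 24.0). The separate pericyte-like and smooth muscle-like classes had less Nrp1, at 196 ± 64.6 and 133 ± 22.7. Nrp2 was also carried by AT1-like cells (118 ± 19.95).

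**Figure D1:**
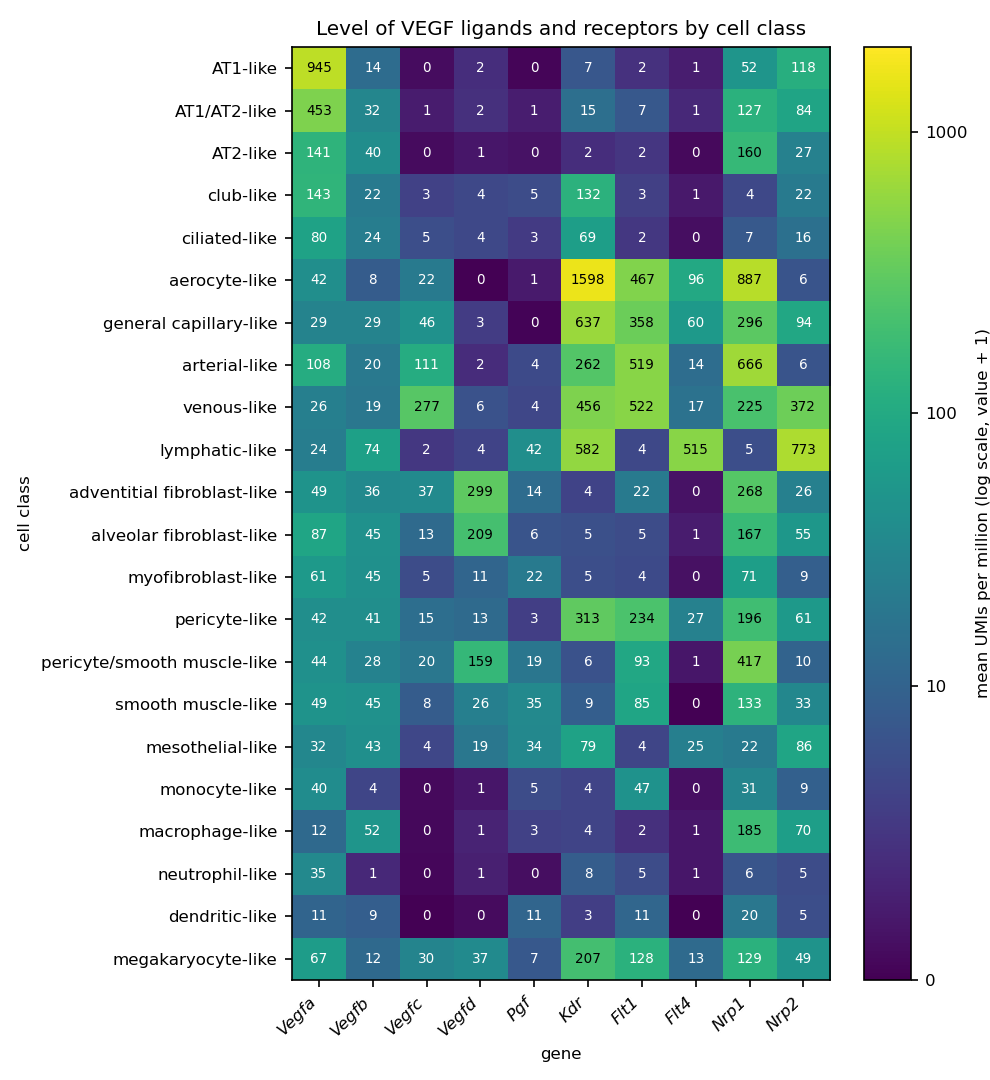
Mean level in CPM of each gene (columns) in 22 marker-named cell classes (rows), averaged over libraries; the colour scale is logarithmic after adding 1 and the number in each cell is the mean. Vegfa is brightest in AT1-like cells (945), Vegfd in adventitial fibroblast-like cells (299), Flt4 in lymphatic-like cells (515) and Kdr in aerocyte-like cells (1598).

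In club-like cells, a small airway class of 23 to 41 cells a library, Kdr stood at 159, 133, 103, 136 and 126 CPM in Het1, Het2, KO1, KO2 and KO3. Cells with at least 3000 UMIs were thinned to that depth, and any with fewer were left out. A Kdr UMI was then held by 31.7%, 34.6%, 32%, 30.4% and 39.1% of club-like cells (85.4%, 92.3%, 73.1%, 75% and 87% of all such cells before thinning). Among AT2-like cells of the same libraries the thinned shares were 0.952%, 0.8%, 0%, 0% and 0% (2.82%, 4%, 2.7%, 0% and 0% of all AT2-like cells before). All 5 libraries showed the gap, and it was not tested as the pattern was picked after its values had been seen. The mean Kdr level was 69.3 CPM in ciliated-like and 14.9 in AT1/AT2-like cells. In the barcodes of mainly haemoglobin UMIs it was 36.2 with haemoglobin left out of the total, which is not the scale of the class levels. The part of free RNA in the club-like level was not tested.

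Other genes followed the members across 22 cell classes, by Pearson correlation of log2(CPM + 1) among 10898 genes with at least 20 CPM in a class. Only classes with at least 20 cells in at least 4 libraries entered. Aerocyte-like cells, highest for Kdr and Nrp1, and lymphatic-like cells, highest for Flt4 and Nrp2, were therefore left out. The heat map of mean levels shows both, so its 22 classes are a different set. The classes share libraries, and the coefficients describe likeness alone. For the ligands, the 3 nearest genes were S100a14 (0.884), Wdr45 (0.881) and Gm33489 (0.876) for Vegfa, Dzip3 (0.9), Aldh7a1 (0.891) and Cbx5 (0.884) for Vegfb, and Jam2 (0.93), Fam171a1 (0.925) and Tek (0.918) for Vegfc. Vegfd was nearest to Unc5c (0.965), Srpx (0.96) and Brinp1 (0.959), and Pgf to Tnnt3 (0.836), Scube3 (0.817) and Cercam (0.815). For the receptors, these were Mapk12 (0.953), Scn3b (0.907) and Cda (0.895) for Kdr, Asb4 (0.91), Adcy4 (0.906) and Clca3a1 (0.903) for Flt1, and C130074G19Rik (0.954), Unc45b (0.952) and Tmem255a (0.932) for Flt4. Nrp1 was nearest to Raph1 (0.851), Tbc1d12 (0.844) and Sh3pxd2a (0.838), and Nrp2 to Phactr1 (0.759), Xiap (0.751) and Mras (0.738).

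Het and KO were compared on UMIs summed per embryo, in the whole library and in the cells of each lineage or class, with edgeR's quasi-likelihood test and Benjamini-Hochberg adjustment over all genes tested. Values below are CPM after scaling by the trimmed mean of M values (TMM), a fold change is log2 KO against Het with its standard error (SE), and a gene was called at an adjusted p under 0.05. The p-values measure the spread between embryos. In the whole library 1 of the 10 members was called, where 4.08% of all genes were. None was called in epithelial sums (16.9% of all genes) or in mesenchymal sums (0.736%), 2 in endothelial sums (5.63%) and 3 in immune sums (7.83%). At an unadjusted p under 0.05 the counts were 4, 4, 5, 8 and 4 of 10 in whole library, epithelial, mesenchymal, endothelial and immune sums, beside 26.0%, 32.1%, 15.5%, 21.1% and 23.1% of all genes. The median fold change of the 10 was 0.12, -0.01, 0.12, 0.08 and -0.09, beside medians over all genes between -0.00188 and 0.0104. In the 9 classes with at least 50 cells in each library, 5 of 61 class and member pairs were called, beside 2.22% of all class and gene pairs (0% to 5.33% by class).

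**Figure D2:**
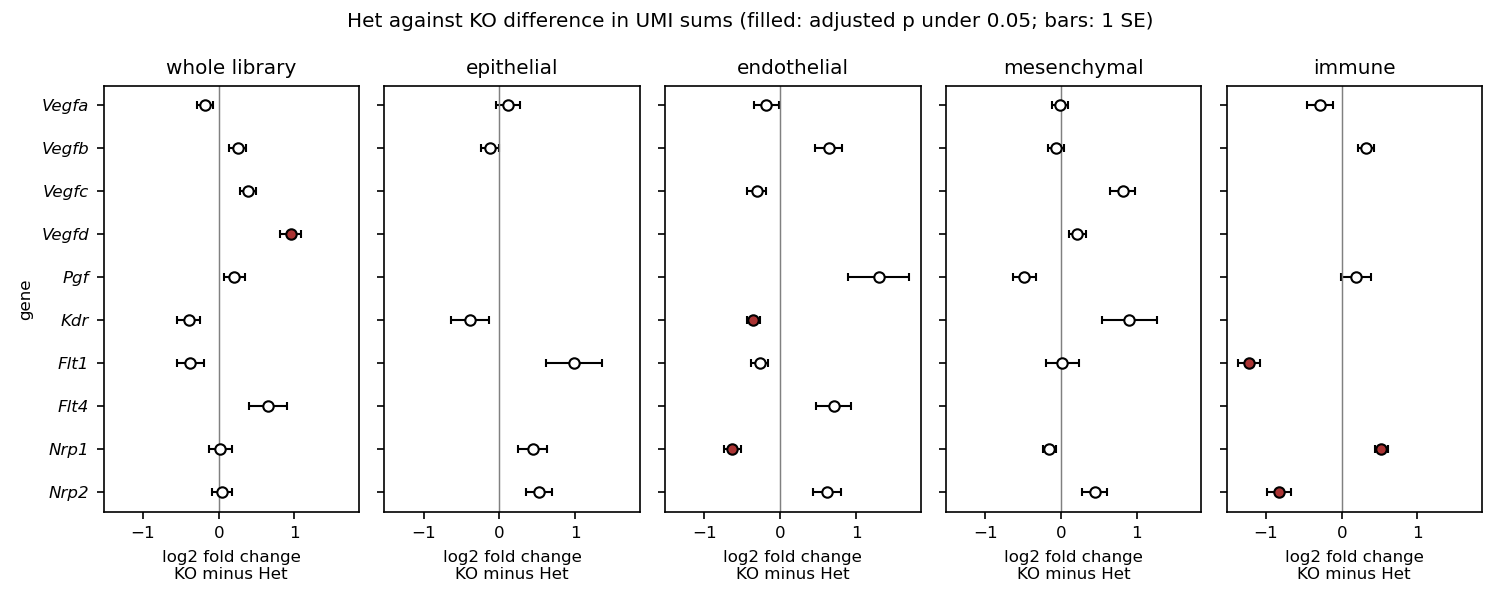
Log2 fold change of each gene, KO minus Het, in the whole library and the 4 lineages (n = 2 Het and 3 KO; bars, 1 SE; filled, adjusted p under 0.05; genes under 5 CPM in both groups not drawn). Filled points are Vegfd in the whole library (0.95), Kdr (-0.36) and Nrp1 (-0.63) in endothelium, and Flt1 (-1.23), Nrp2 (-0.83) and Nrp1 (0.52) in immune cells.

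In the whole library, Vegfd, the lymphangiogenic ligand of lung fibroblasts, was the member that rose. The 2 Het libraries had 16.7 and 18.1 CPM, and KO1, KO2 and KO3 had 38.9, 28.6 and 33.2. Every KO library was above both Het libraries. The log2 fold change was 0.95 (SE 0.14, adjusted p = 0.0276), and was not called with either Het library or KO3 left out (0.89 to 1.01). Vegfd lies on the X chromosome, and KO1 and KO2 were female while KO3 and both Het embryos were male. With sex in the model its log2 fold change was 0.94, without a call. Mesenchymal cells, which hold most Vegfd, made up 12.4% to 13.2% of Het and 17.2% to 28.1% of KO cells. A whole-library sum cannot tell more cells of a type from more RNA per cell. Within mesenchymal sums Vegfd stood at 133 and 146 in the Het and 141, 175 and 170 in the KO libraries, ranges that overlapped, with a log2 difference of 0.22 (adjusted p = 0.378).

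The alveolar fibroblast-like class, in which 5.04% of genes were called, gave Vegfd values of 179 and 173 CPM in the Het against 241, 232 and 228 in the KO libraries. The groups did not overlap, and the fold change of 0.41 (SE 0.12) missed the threshold (adjusted p = 0.0644). Cluster 12 of that class had similar numbers of cells in each library (76 to 84) and was also fitted by itself, where 1.66% of genes were called. There Vegfd was 188 and 177 in the Het and 279, 275 and 272 in the KO libraries (log2 fold change 0.59, adjusted p = 0.03), and not called without Het1, Het2 or KO2 (0.56 to 0.64, adjusted p = 0.191, 0.335 and 0.0703). In cluster 41, which held most KO cells of the class and in which 0.183% of genes were called, the values were 160, 151 and 224, 197, 207 (0.43, adjusted p = 0.563). In myofibroblast-like cells, with 1.17% of genes called, Vegfd was low, at 3.94 and 3.28 against 15.9, 12.8 and 20.5, and rose (2.17, SE 0.52, adjusted p = 0.0485), a call that no removal of a single library left in place (1.94 to 2.31, adjusted p = 0.0514 to 0.311). In adventitial fibroblast-like cells, the class with its highest level, Vegfd was 281 and 273 against 257, 384 and 310, a difference within the spread (0.19, adjusted p = 0.779).

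Vegfa, the main ligand of KDR, did not pass the test in any lineage, but the cells that carried it differed between genotypes. In the whole library Vegfa was 137 and 130 CPM in the Het and 114, 104 and 134 in the KO libraries (log2 difference -0.18, adjusted p = 0.334). In epithelial sums it was 304 and 356 against 388, 276 and 402, ranges that overlapped (0.11, adjusted p = 0.687). AT1-like cells carried 24.8% and 26.4% of all Vegfa UMIs in the Het and 5.52%, 10.1% and 12.4% in the KO libraries. AT1/AT2-like cells carried 11.9% and 17.5% in the Het and 49.6%, 59.3% and 51.5% in the KO libraries. The cell numbers moved the same way, with 203 and 189 AT1-like cells against 35, 47 and 88, and 73 and 82 AT1/AT2-like cells against 140, 161 and 191. These classes were named on the same cells, so a change of AT1 genes also moves cells between them.

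**Figure D3:**
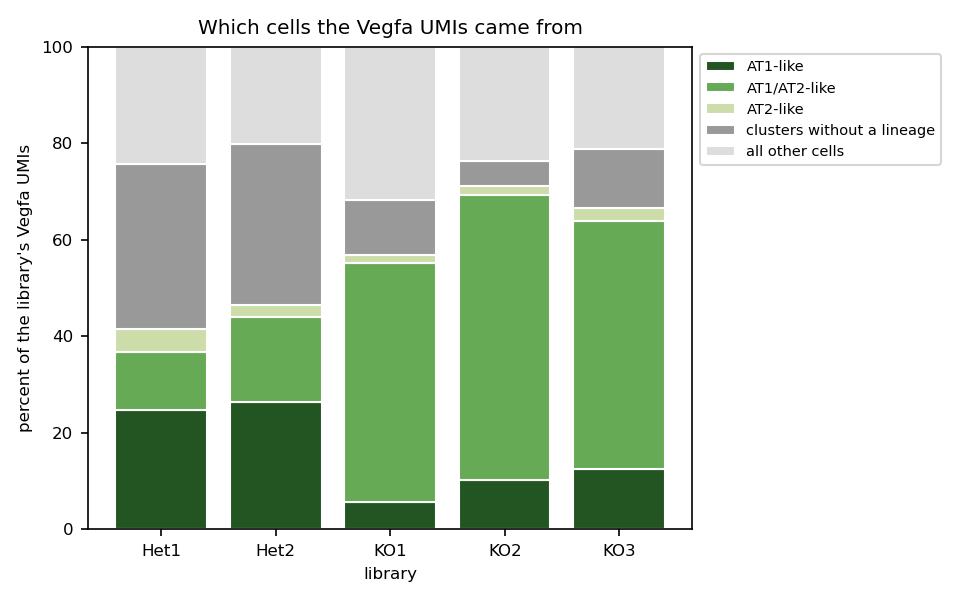
Share of each library's Vegfa UMIs (percent, y axis) that came from AT1-like, AT1/AT2-like, AT2-like, unnamed lineage-less and all other cells in the 5 libraries (x axis). AT1/AT2-like cells supplied 11.9% and 17.5% in the Het and 49.6% to 59.3% in the KO libraries.

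Unnamed clusters with no lineage held 34.2% and 33.4% of Vegfa UMIs in the Het libraries, and 11.5%, 5.24% and 12.1% in the KO libraries. Their largest holder of Vegfa was cluster 26, led by the AT1 genes Aqp5, Clic5 and Ager, with a median of 41470 UMIs per cell and 108, 106, 12, 9 and 25 cells. In cluster 26 Vegfa stood at 512, 438, 714, 393 and 545 CPM, and Kdr at 380, 320, 128, 209 and 170. Whether barcodes of cluster 26 hold more than 1 cell was not tested, and none of them entered a lineage sum.

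Within each distal epithelial class Vegfa moved less than the shares did. AT1-like cells, with 1.15% of genes called, gave 1109 and 974 CPM in the Het and 978, 701 and 1052 in the KO libraries, which overlapped (log2 difference -0.20, SE 0.15, adjusted p = 0.687). AT1/AT2-like cells, with 5.33% called, gave 539 and 502 against 480, 335 and 432, lower in every KO library yet not past the threshold (-0.33, adjusted p = 0.224). AT2-like cells, with 2.04% called, gave 122 and 105 against 164, 149 and 172, higher in every KO library (0.51, adjusted p = 0.0883). With AT1-like cells left out of the epithelial sums, Vegfa was 171 and 208 against 369, 255 and 356, and was called (0.78, adjusted p = 0.00897). The part of the AT1/AT2-like cell numbers in that difference was not tested.

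Kdr, the main signalling receptor, was lower in KO endothelium as a whole. It stood at 698 and 706 CPM in the Het and at 588, 518 and 539 in the KO libraries, with no overlap (log2 fold change -0.36, SE 0.08, adjusted p = 0.0471). Aerocyte-like cells, with the highest Kdr of any class, numbered 97 and 68 in the Het and 3, 3 and 4 in the KO libraries. With those cells left out, 1.76% of genes were called and Kdr was 526 and 557 against 589, 514 and 535, overlapping (0.01, adjusted p = 0.971). In general capillary-like cells, with 4.12% of genes called, it was 623 and 670 against 734, 572 and 603 (-0.02, SE 0.11, adjusted p = 0.948). The few aerocyte-like cells of the KO libraries, with 19, 34 and 47 Kdr UMIs in all, gave 912, 1656 and 1527 unscaled CPM beside 1591 and 1605 in the Het libraries, an exact two-sided permutation p of 0.7, where 2 against 3 libraries cannot go below 0.1.

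The Kdr result in endothelium also rested on single libraries, since leaving out either Het library or KO3 ended the call (log2 -0.36, -0.35 and -0.34; adjusted p = 0.283, 0.296 and 0.135). With sex as a covariate Kdr was not called either (-0.38, adjusted p = 0.229). With coarser clusters (Leiden resolution 1), Kdr was lower in the general capillary-like class (-0.41, adjusted p = 0.018). No aerocyte-like class was obtained at that resolution, and the mean level of the general capillary-like class was then 720.2 CPM for Kdr (637 in the main clusters) and 344 for Nrp1 (296). Of all Kdr UMIs, aerocyte-like cells carried 17.5% and 14.9% in the Het and 0.522%, 0.995% and 1.08% in the KO libraries, and general capillary-like cells 23% and 23.1% against 37.6%, 49.7% and 34.3%. Unnamed clusters with no lineage carried 34.6% and 34.3% in the Het and 3.46%, 4.04% and 7.72% in the KO libraries, and did not enter the endothelial sums. Kdr over the whole library was 101, 93.3, 91, 65.8 and 65.7 CPM (-0.39, adjusted p = 0.175).

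Nrp1, the co-receptor that joins KDR on blood endothelium, was also lower in KO endothelium. It stood at 478 and 411 CPM in the Het and at 325, 276 and 260 in the KO libraries, without overlap (log2 fold change -0.63, SE 0.12, adjusted p = 0.0173). Without aerocyte-like cells the values were 394 and 336 against 323, 275 and 259, still apart but not called (-0.36, adjusted p = 0.18). In general capillary-like cells Nrp1 was 375 and 328 against 302, 214 and 269 (-0.43, SE 0.13, adjusted p = 0.0789). It was called there in 6 of 15 alternatives (adjusted p = 0.000999 to 0.49, the lowest at Leiden resolution 1). In arterial-like cells Nrp1 was 692 and 674 against 758, 677 and 610 (0.00, adjusted p = 0.999). Leaving out either Het library or KO3, or adding sex to the model, ended the endothelial call (adjusted p = 0.194, 0.0636, 0.0733 and 0.0888), with a log2 fold change of -0.52 to -0.77.

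Nrp2, the co-receptor of lymphatic and venous endothelium, moved the other way in capillaries. In general capillary-like cells it stood at 63.8 and 75.1 CPM in the Het and at 134, 98.9 and 102 in the KO libraries, without overlap, and rose (log2 fold change 0.68, SE 0.15, adjusted p = 0.0221). Within this class the summed aerocyte markers were 449 and 501 CPM in the Het and 268, 187 and 247 in the KO libraries, and the AT1 markers 323 and 294 against 178, 123 and 179. Nrp2 was 6.24 in aerocyte-like cells, and the part of these markers' cells in the rise was not tested. Its 2 clusters gave 0.71 in cluster 25, where 2.9% of genes were called (adjusted p = 0.0471), and 0.65 in cluster 36, where 2.56% were (adjusted p = 0.161). The call in the class ended without Het1 (0.56, adjusted p = 0.273) or Het2 (0.80, adjusted p = 0.108), and with sex in the model (0.56, adjusted p = 0.217). Over all endothelium Nrp2 was 135 and 152 against 242, 161 and 256, with no overlap (0.62, SE 0.18, adjusted p = 0.0937). Nrp2 overlaps an antisense gene, Gm29083, and a gene on its own strand, Gm37121, so some reads may belong to those.

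**Figure D4:**
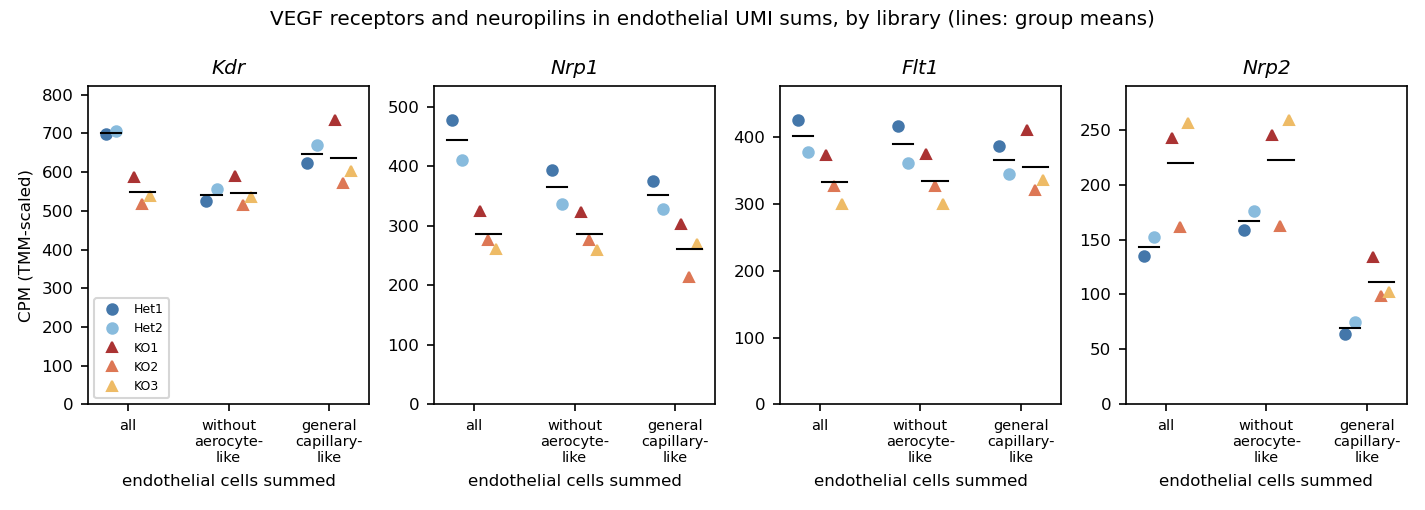
CPM (TMM-scaled, y axes) of Kdr, Nrp1, Flt1 and Nrp2 in each library for all endothelial cells, for those without aerocyte-like cells and for general capillary-like cells (lines, group means). Kdr of the 2 Het libraries lies above the 3 KO libraries over all endothelial cells (698 and 706 against 518 to 588) and among them once aerocyte-like cells are left out.

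Flt1, the decoy receptor, did not pass the test in endothelium, at 426 and 378 CPM in the Het and 374, 327 and 301 in the KO libraries (log2 difference -0.27, adjusted p = 0.206). The groups just failed to overlap. In general capillary-like cells it was 386 and 346 against 411, 322 and 336 (-0.04, adjusted p = 0.893), and over the whole library 73.2, 62.7, 65.7, 46.5 and 45.2 (-0.38, adjusted p = 0.236).

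Flt4, the lymphatic receptor, was higher over KO endothelium in value only, at 80.7 and 81.4 CPM in the Het against 158, 85.3 and 153 in the KO libraries (log2 difference 0.70, SE 0.24, adjusted p = 0.128). KO2 lay close to the Het libraries. Lymphatic-like cells numbered 12 and 5 in the Het and 38, 20 and 32 in the KO libraries, and carried 24.5% and 23.2% of Flt4 UMIs in the Het against 63.2%, 34.7% and 62.6%. Unnamed clusters with no lineage carried 28.3% and 27.9% of Flt4 UMIs in the Het and 1.11%, 2.78% and 3.9% in the KO libraries. In unscaled CPM of the lymphatic-like cells, Flt4 was 772 and 556 in the Het and 524, 539 and 481 in the KO libraries, each KO value lower (exact two-sided permutation p = 0.1, the smallest that 2 against 3 allows). The Het values rest on 12 and 5 cells. Nrp2 in the same cells was 1517 and 868 against 641, 970 and 708, which overlapped (exact permutation p = 0.3).

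Vegfc, the ligand of FLT4, was lower in KO endothelium in value, at 82.5 and 81.7 CPM against 56.8, 74.1 and 67.6 (log2 difference -0.31, adjusted p = 0.2). In venous-like cells, where it was highest, Vegfc stood at 409 and 282 unscaled CPM in the Het and 171, 226 and 247 in the KO libraries (exact permutation p = 0.1). In arterial-like cells the values went the other way, at 79.6 and 73.5 CPM against 108, 164 and 146 (0.85, SE 0.22, adjusted p = 0.181). Over mesenchymal cells Vegfc was 10.7 and 16.1 against 22.8, 24.3 and 23.9, with no overlap (0.82, SE 0.16, adjusted p = 0.0732). In adventitial fibroblast-like cells, where 0.0856% of genes were called, it was 17.2 and 27 against 46.1, 50.5 and 45.6 (1.06, SE 0.19, adjusted p = 0.0516). Nrp2 in that class was 14.9 and 17.9 against 36.3, 30.4 and 32 (1.00, adjusted p = 0.058). The whole library gave 8.96 and 8.09 for Vegfc against 12.2, 10.8 and 10.7 (0.39, adjusted p = 0.0922).

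In the mesenchyme, Nrp1 fell in alveolar fibroblast-like cells, from 256 and 235 CPM in the Het to 121, 123 and 105 in the KO libraries (log2 fold change -1.08, SE 0.12, adjusted p = 0.000241). That class is split unevenly, with 78 and 84 Het against 76, 79 and 80 KO cells in cluster 12 and 37 and 24 against 123, 78 and 105 in cluster 41. Nrp1 was higher in cluster 12 than in cluster 41 in every library. Within cluster 12 it was 320 and 264 against 208, 182 and 178 and fell (-0.63, adjusted p = 0.0281), and within cluster 41 it was 99.5 and 102 against 71.7, 69 and 62.4 (-0.57, adjusted p = 0.515). The groups did not overlap in either cluster. The class call for Nrp1 held with any single library left out and ended with stricter cell filters (-0.53, adjusted p = 0.242), and the call in cluster 12 ended without Het1, Het2, KO2 or KO3 (-0.48 to -0.76). In adventitial fibroblast-like cells Nrp1 overlapped, at 300, 246, 302, 254 and 249 (-0.02, adjusted p = 0.987).

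Pgf, a ligand of FLT1, also fell in alveolar fibroblast-like cells, from 12.7 and 8.57 CPM to 3.47, 3.12 and 3 (log2 fold change -1.71, SE 0.44, adjusted p = 0.0433). Without Het1, Het2, KO2 or KO3 that call ended (-1.41 to -1.98, adjusted p = 0.372, 0.216, 0.0827 and 0.0964). Over the mesenchyme Pgf was 18.4 and 18.3 against 12.7, 11.1 and 15.2 (-0.49, adjusted p = 0.198). Its values were higher in KO smooth muscle-like cells, at 27.6 and 25.6 against 42.1, 35.5 and 47.4 (0.66, adjusted p = 0.475). Vegfb, the other ligand of FLT1, stayed within its spread in mesenchymal sums, at 44.9, 41.5, 42.4, 36.7 and 44.4 (-0.06, adjusted p = 0.808). In endothelial sums Vegfb was 27, 19.5, 39, 30.3 and 39.9 (0.64, adjusted p = 0.0852).

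Kdr in mesenchymal sums stood at 15 and 42.8 CPM in the Het and 66, 51.9 and 44.1 in the KO libraries (log2 difference 0.90, SE 0.36, adjusted p = 0.296). Pericyte-like cells numbered 43 in the Het and 219 in the KO libraries. Within pericyte-like cells Kdr was 112 and 479 against 366, 260 and 345 (0.06, adjusted p = 0.986), with the 2 Het libraries at the extremes. With cells that carried markers of another lineage left out, mesenchymal Kdr had a mean of 3.63 CPM in the Het and 3.06 in the KO libraries (from 28.9 and 54.02), and the difference turned to -0.22 (adjusted p = 0.821). The part of such mixed cells in the pericyte-like level was not tested.

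In immune cells the receptor Flt1 fell. It stood at 52.2 and 37.9 CPM in the Het and at 19.1, 17.1 and 21.3 in the KO libraries, without overlap (log2 fold change -1.23, SE 0.14, adjusted p = 0.0027). FLT1 is known in monocytes and macrophages as the receptor through which VEGF-A and PGF draw them. The fall was called in all 15 alternative settings tried, sex and each left-out library included, with adjusted p no higher than 0.0472. Kdr stood in the same sums at 5.88, 3.05, 3.41, 1.96 and 2.91, and the part of free endothelial RNA in the Flt1 difference was not tested. Macrophage-like cells of the same libraries had Flt1 at 2.1, 0, 1.2, 0.8 and 0.3 CPM in cluster 10.

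Flt1 was also lower within single immune clusters. The 3 monocyte-like clusters, summed, gave 81 and 63.6 against 35.9, 23 and 34.4 (-1.24, SE 0.17, adjusted p = 0.00424), in a class where 1.42% of genes were called. That call ended without Het1 (-1.06, adjusted p = 0.0536) and with sex in the model (-1.07, adjusted p = 0.177). By cluster the fold change was -1.39 in cluster 11 (0.0324% of genes called, adjusted p = 0.0943), -1.32 in cluster 16 (0.387%, adjusted p = 0.0183) and -1.18 in cluster 20 (0.561%, adjusted p = 0.0146). These 3 clusters, led by Ms4a4c and Plac8, by Plac8 and Ly6c2, and by Gpr171 and S100a4, held monocyte-like cells in unlike proportions, with 29 KO1 cells against 244 KO2 cells in cluster 16. Among monocyte-like cells with at least 3000 UMIs, thinned to that depth, 20.5% and 17.3% of Het and 9.36%, 5.68% and 10.2% of KO cells held an Flt1 UMI. Over all monocyte-like cells before thinning the shares were 42.6%, 35.5%, 23.6%, 16.3% and 24%. The thinned macrophage-like share was 0.685%, 0%, 0%, 0% and 0.932%.

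Clusters 3, 4 and 17 had no class name and had Ear2 among their leading genes, with Lpl and Plet1 in clusters 3 and 17. Clusters 5 and 32 were led by the cell-cycle genes Top2a, Mki67 and Ccnb2. Flt1 was lower in each, by -1.41 in cluster 3 (1.23% of genes called, adjusted p = 0.00287), -0.97 in cluster 4 (0.52%, adjusted p = 0.0194), -1.01 in cluster 17 (3.61%, adjusted p = 0.000557), -1.04 in cluster 5 (1.97%, adjusted p = 0.00186) and -1.30 in cluster 32 (0.608%, adjusted p = 0.0148). In cluster 17, the largest, Flt1 was 81.7 and 55 CPM against 40.2, 31.1 and 33. The groups did not overlap there or in the other 4. With each library left out in turn, Flt1 stayed called in clusters 3 and 5. The calls ended without Het1 in clusters 4, 16, 17, 20 and 32 (adjusted p = 0.312, 0.173, 0.0566, 0.198 and 0.307), without KO2 in clusters 4, 16, 20 and 32, and without KO3 in cluster 16.

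Nrp2 fell in these 5 clusters too. Over immune cells Nrp2 was 53.7 and 57.7 CPM in the Het and 40.2, 25 and 29.9 in the KO libraries (log2 fold change -0.83, SE 0.16, adjusted p = 0.0192), and it was not called with sex in the model (adjusted p = 0.115) or with either Het library or KO3 left out (adjusted p = 0.091, 0.157 and 0.0586). In cluster 17 it was 84 and 75.7 against 45.5, 32.3 and 37.9 (-1.08, SE 0.12, adjusted p = 1.55e-05). The other fold changes were -1.21 in cluster 3 (adjusted p = 0.000322), -1.04 in cluster 4 (0.0331), -0.97 in cluster 5 (0.000978) and -1.34 in cluster 32 (0.0108). With each library left out in turn, the adjusted p in clusters 3, 5 and 17 went no higher than 0.00651, 0.0191 and 0.00182. The Nrp2 call ended in cluster 4 without Het1, Het2, KO2 or KO3 (highest adjusted p 0.412) and in cluster 32 without Het1, Het2 or KO2 (highest 0.139). In macrophage-like cells, where 0.702% of genes were called, Nrp2 was 54.4 and 69.9 against 102, 54.3 and 71.3, which overlapped (0.28, adjusted p = 0.721). Unnamed immune clusters held 38.9% and 39.3% of all Nrp2 UMIs in the Het and 8.94%, 11.5% and 11.9% in the KO libraries. Among these clusters, cluster 13 had 154 and 167 Het cells against 7, 16 and 22 KO cells. The part of cell numbers in the immune sums of Nrp2 and Flt1 was not tested.

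**Figure D5:**
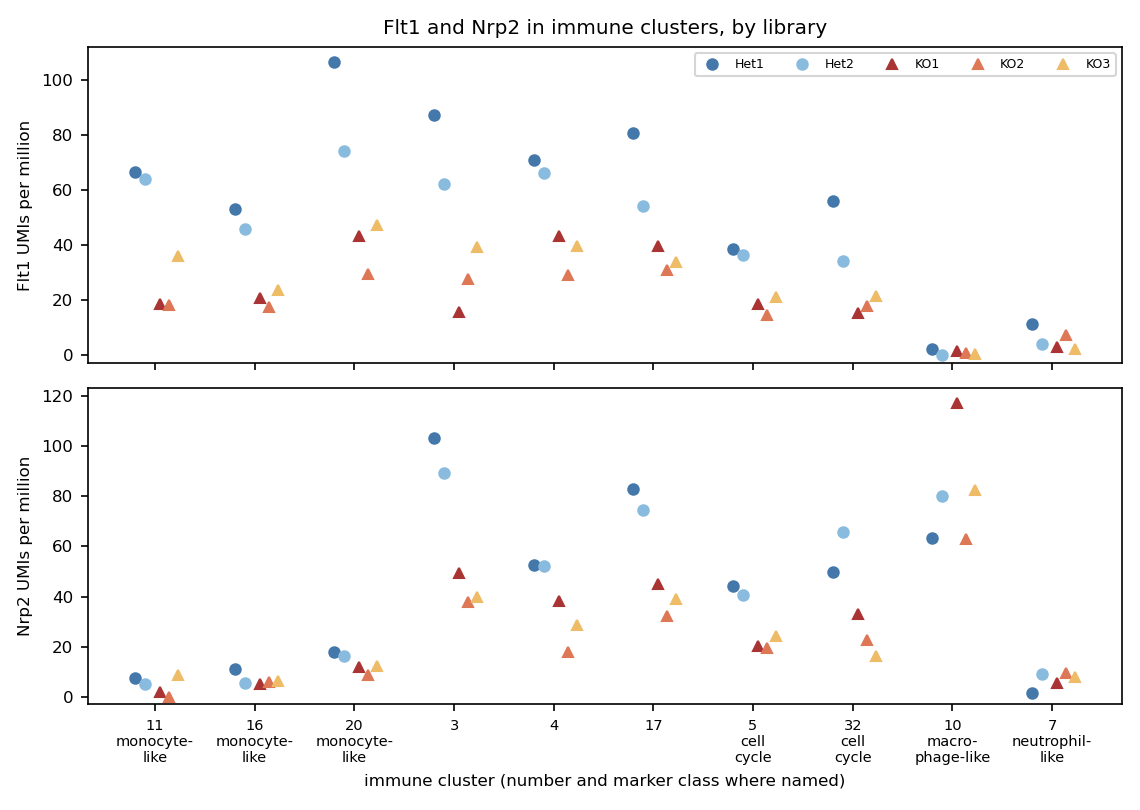
CPM of Flt1 (upper panel) and Nrp2 (lower panel) in each library (points) by immune cluster (x axis; libraries with at least 20 cells). In clusters 11, 16, 20, 3, 4, 17, 5 and 32 both Het points for Flt1 lie above the 3 KO points, and for Nrp2 this holds in clusters 20, 3, 4, 17, 5 and 32.

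Nrp1 rose over immune cells, from 36.1 and 32.3 CPM to 53.9, 47.1 and 46.8 (log2 fold change 0.52, SE 0.08, adjusted p = 0.00957). The classes that carry it changed in number, with macrophage-like cells at 3.26% to 3.3% of Het and 8.13% to 8.87% of KO cells, and those cells had a level of 185 CPM. Within macrophage-like cells Nrp1 was 177 and 204 against 188, 184 and 174 (-0.07, adjusted p = 0.879). In the 8 clusters that carried Flt1, no Nrp1 difference was called, with fold changes from -0.28 to 0.31. Leaving out either Het library, or adding sex, ended the immune call for Nrp1 (adjusted p = 0.0512, 0.134 and 0.087).

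Nrp2 in epithelial sums was 39.2 and 54.2 against 77.2, 57.1 and 67.6 (log2 difference 0.52, SE 0.17, adjusted p = 0.0622). It was called in 7 of 16 alternatives (adjusted p = 0.00199 to 0.495). Without AT1-like cells Nrp2 was 27.4 and 38.1 against 74.9, 55.6 and 63.7 (0.98, adjusted p = 0.00392). In AT1/AT2-like cells Nrp2 overlapped between genotypes, at 79.5, 94.3, 97.1, 73.8 and 77.9 (-0.08, adjusted p = 0.796).

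Whether the Het against KO difference of a gene differed between the 4 lineages was tested in 1 model with the library as a block. The genotype by lineage terms were called for 7 of 10 members, beside 15.6% of all genes. They were Nrp1 (adjusted p = 0.000186), Nrp2 (0.000246), Flt1 (0.00287), Vegfb (0.0115), Vegfc (0.0197), Pgf (0.0381) and Kdr (0.046). Vegfa (0.189), Vegfd (0.288) and Flt4 (0.499) did not pass. Without Het1 only Nrp1 (0.015) and Nrp2 (0.0142) were called, with Flt1 at 0.0767, Vegfb at 0.0616, Vegfc at 0.238, Pgf at 0.081 and Kdr at 0.429. The count was 6 of 10 without Het2, 4 without KO1, 5 without KO2 and 5 without KO3, and 6 with scaling by library size alone (Kdr 0.0587). Nrp1 was lower in endothelium (-0.63) and higher in immune cells (0.52), while Nrp2 was lower in immune cells (-0.83) and higher, without a call, in endothelium (0.62).

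The other genes of the pathway were taken as 6 lists of 62 genes in all. In endothelial sums 0 of 55 tested rose and 9 fell, with a median log2 fold change of 0.01 beside 0.00 over all genes. Of all genes, 5.63% were called there in either direction. Of the receptor signalling list, 2 of 13 fell, Hspb1, a small heat-shock protein phosphorylated downstream of KDR (-2.06, SE 0.15, adjusted p = 0.000236), and Cdh5, the cadherin of endothelial junctions (-0.33, adjusted p = 0.047). Of the semaphorins and plexins, the other ligands and partners of neuropilins, 2 of 9 fell, Sema3c (-2.52, SE 0.20, adjusted p = 0.000311) and Sema3f (-1.28, adjusted p = 0.00148). Sema3c went from 28 and 23.3 CPM to 4.18, 4.19 and 4.87, with no overlap.

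The hypoxia lists each had 1 gene that fell of 8 tested, Epas1, which encodes HIF-2α (-0.55, adjusted p = 0.00843), and Ankrd37, a HIF-1 target (-1.05, adjusted p = 0.00107). Of the endothelial response list 3 of 14 fell, the peptide ligand Apln (-1.04, adjusted p = 0.00871), which is also an aerocyte marker, the homeobox gene Hlx (-0.49, adjusted p = 0.0296) and the calcineurin regulator Rcan1 (-0.78, adjusted p = 0.0308). None of 3 ligand-processing genes was called. Without aerocyte-like cells, 6 of 53 fell and 0 rose, where 1.76% of all genes were called. In general capillary-like cells 5 of 50 fell, which were Hspb1, Sema3c, Sema3f, Epas1 and Ankrd37, and the semaphorin receptor gene Plxnd1 rose (0.42, adjusted p = 0.022). Of all genes, 4.12% were called in that class.

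In epithelial sums 9 of 59 rose and 2 fell, with a median of 0.13, where 16.9% of all genes were called in either direction. Of those that rose, Unc5b (1.72), Dll4 (1.21), Tie1 (1.29), Cdh5 (1.16), Ptprb (1.40) and Plxnd1 (1.28) are genes known from endothelium, at 1.36 to 12.5 CPM in the Het libraries. Ndrg1 (0.85) and Plxna2 (0.57) rose from higher levels, and Epas1 (-0.78) and Ankrd37 (-0.52) fell. Epithelial cells with markers of another lineage made up 11.2% and 13.5% in the Het and 14.9%, 25.3% and 26% in the KO libraries, and with them left out 0 of 49 were called. Calls over all genes then dropped from 2483 to 228. The fold change without them was 1.19 for Dll4 (adjusted p = 0.196), 1.29 for Unc5b (0.119), 0.67 for Ndrg1 (0.165) and -0.85 for Cdh5 (0.291). Cdh5 and Tie1 are among the endothelial markers by which the mixed cells were picked. Their lower values without those cells were therefore partly fixed in advance, and say little about these genes. In mesenchymal sums, where 0.736% of all genes were called, 1 of 60 rose, Plxnd1 (0.80, adjusted p = 0.0276), and 1 fell, Plxna2 (-0.43, adjusted p = 0.0499). In immune sums 2 of 57 rose and 3 fell (7.83% of all genes called), and in the whole library 1 of 62 rose and 2 fell (4.08%).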

How the data were processed

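Whole lungs were digested with collagenase, depleted of red cells and run as 1 droplet library per embryo, per the labels' protocols. The authors deposited UMI counts per gene and barcode, made with Cell Ranger 4.0.0 on mm10 per the submitters' processing notes; filters used in making them are not given in the sources used here. A barcode was kept where 500 genes or more were detected and the mitochondrial share of its UMIs did not exceed 15%. Kept cells therefore include an erythroid-like cluster and cluster 9, which was led by haemoglobin genes. The highest simulated-doublet scores were removed (0.8% per 1000 cells). Cells were then clustered (2000 variable genes without the members, 30 components, Leiden resolution 2, scanpy 1.11.5) and named by marker lists. Names are rebuilt, not the authors'. UMIs were summed per embryo and tested with edgeR 4.0.16 (R 4.3.3, TMM, filterByExpr, quasi-likelihood, two-sided, Benjamini-Hochberg over all genes). DESeq2 1.42.0, other filters, resolutions, sex as a covariate, the replicate number as a block and each library left out were alternatives. Scripts were tested on simulated counts.

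The depth was 56608582 to 93708304 UMIs per library, and counting error limits classes of few cells. The members and gene lists were chosen with earlier results of these data known. Named genes were the 10 members, the 3 genes of lowest p per pathway list among those called in endothelial and epithelial sums (2 in mesenchymal), and the 3 genes most like each member over classes. The pathway genes given for general capillary-like cells fall outside that rule. Chosen after values had been seen were a revision of the naming rule, fits of classes with 20 to 49 cells, fits of single clusters and those named from them, the small classes shown, and part of the promoter motif set. The microRNAs were chosen from what is known of Zswim8. Replicate numbers were not taken to pair the libraries. The labels give no batch.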

Additional observations from a re-analysis of the deposited data

Results flagged for a closer look

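For 7 of the 10 members the Het against KO difference itself differed between the 4 lineages, by edgeR's quasi-likelihood test of the genotype by lineage terms. The adjusted p was 0.000186 for Nrp1, 0.000246 for Nrp2, 0.00287 for Flt1, 0.0115 for Vegfb, 0.0197 for Vegfc, 0.0381 for Pgf and 0.046 for Kdr. With a library left out, 2 of the 10 were called without Het1 (Nrp1 and Nrp2), 6 without Het2, 4 without KO1 and 5 without KO2 or KO3. Against endothelium, the difference of Nrp1 was 1.14 higher (log2) in immune cells and 1.07 higher in epithelial cells. Epithelial Nrp1 itself differed by 0.00266 between Het and KO when mixed cells were left out. The term of Nrp2 was -1.47 in immune cells. For Flt1 it was -0.95 in immune cells and 1.28 in epithelial cells, where Flt1 was low (2.045 to 8.65 CPM). For Vegfc and Kdr it was 1.15 and 1.25 in mesenchymal cells. Pgf was -1.89 and -1.78 in epithelial and mesenchymal cells against endothelium, and Vegfb -0.73 and -0.70. Pgf was low, at 3.96 and 1.35 CPM in Het and 6.28, 6.99 and 6.93 in KO endothelial sums. In epithelial sums it was no higher than 1.955. Lymphatic-like cells, the endothelial class with the most Pgf, numbered 12 and 5 in the Het and 38, 20 and 32 in the KO libraries. The part of their number in the Pgf term was not tested. Kdr in mesenchymal sums changed sign when mixed cells were left out.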

How the results depend on the processing

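Counts of called genes moved most. In the whole library 723 genes were called, and 2214 with DESeq2, 8 with a replicate block, 413 without erythroid and immune cells, and 0 with sex as a covariate by edgeR (2493 at an unadjusted p under 0.05). Epithelial sums had 2483, and 1402 with the block, 1623 with sex, 1529 at Leiden resolution 1, 228 without mixed cells and 1232 with stricter cell filters. Endothelial sums had 666, and 1575 without the count filter, 336 with the block, 116 with sex and 203 without aerocyte-like cells. Mesenchymal sums had 99, and 292 with DESeq2, 154 with the block, 1 with sex and 59 without mixed cells. Immune sums had 1085, and 346 with sex. Leaving out 1 library gave 2 to 949, 715 to 2341, 135 to 1043, 10 to 102 and 205 to 1324 in the same order, and 629 to 2298 for the lineage terms (2566). The 5 class and member pairs became 11 without the count filter, 1 with sex, 12 at resolution 1, 2 with stricter filters and 1 to 8 with a library left out. Without 1 Het library the other is assumed to vary like the KO libraries. With sex in the model the genotype difference rests on KO3 against the 2 Het libraries. A call lost there cannot be assigned to sex.

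Vegfd in the whole library was 0.94 with the block (adjusted p = 0.14) and 0.94 with sex (0.197), and 0.83 to 1.05 with a library left out. Endothelial Kdr was -0.35 with the block (0.161), -0.38 with sex, -0.35 at resolution 3 (0.0505) and 0.0109 without aerocyte-like cells (0.971), and -0.40 to -0.32 with a library left out. Endothelial Nrp1 was -0.77 with sex and -0.36 without aerocyte-like cells, immune Nrp2 -0.90 with sex and immune Nrp1 0.45 with sex. Leaving out a library gave -0.73 to -0.52, -1.02 to -0.69 and 0.44 to 0.60 for these. Vegfb in macrophage-like cells was 56.9 and 56.8 CPM at resolutions 1 and 3, and Kdr in general capillary-like cells 720.2 at resolution 1.

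Differences that had not been called changed sign. Vegfa was 0.00708 with sex in the whole library, -0.00673 with the block and -0.0549 without mixed cells in epithelial sums, and 0.0154 with sex in AT1-like cells. Mesenchymal Kdr was -0.32 at resolution 3, -0.22 without mixed cells, -0.56 with doublets kept and -0.73 with stricter filters. General capillary-like Kdr was 0.00421 with the block and 0.107 at resolution 3, and macrophage-like Nrp1 0.0082 at resolution 3. With a library left out, epithelial Vegfa ran from -0.00284 to 0.283, Kdr from -0.137 to 0.0472 and Flt1 from -0.156 to 0.0437 in general capillary-like cells, and Nrp1 from -0.158 to 0.0421 in macrophage-like cells. The cause was not tested for any of these. Deviations of Het and KO libraries with the same number correlated at -0.12 and -0.10. The deviations of the 2 Het libraries from their mean mirror each other, so these values cannot tell whether the numbers pair libraries. DESeq2 gave no adjusted p for Vegfd in myofibroblast-like cells.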
